A study of Mus musculus with 6 samples.

Results

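The genes of glycolysis and of the hypoxia response were examined in the corneal epithelium of mice lacking *Rela*, which encodes the RelA subunit of canonical NF-kappa B. The set was a list of 36 gene symbols, chosen with earlier results of these data known, and all 36 had a row in the deposited table of 17554 genes. It held 10 genes of glucose uptake and commitment to glycolysis, 9 enzymes of lower glycolysis, 5 genes that set the fate of pyruvate and lactate, and 12 genes of the hypoxia response. RNA was sequenced from the epithelial layer of the cornea, in 3 control samples labelled WT and 3 mutant samples labelled Rela-/-, all of strain C57BL/6 and 2 months of age. The mutants were *Krt14-Cre; Rela f/f* mice, in which Cre is driven by the keratin 14 promoter, so the gene was removed from keratin 14-positive epithelia (cornea, limbus, conjunctiva, skin and others) and not from the whole animal. Total expected counts per sample lay between 19492942 and 19733834, so that 3 counts corresponded to 0.152 to 0.154 CPM (counts scaled to library size), and 12667 genes passed a filter on low counts.

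Glycolysis splits glucose into pyruvate in the cytosol and yields ATP without oxygen. Glucose enters through GLUT transporters, is trapped by hexokinase, is committed by phosphofructokinase, and its pyruvate either enters mitochondria or is reduced by lactate dehydrogenase to lactate, which leaves through monocarboxylate transporters. The cornea has no blood vessels, and its epithelium is known to store glycogen and to release lactate. When oxygen is scarce, prolyl hydroxylases (the EGLN proteins) stop marking HIF-1 alpha for degradation, and the stabilised factor binds the letters ACGTG or GCGTG, the core of the hypoxia response element, at many genes of glycolysis. *Hif1a* is also known as a gene whose transcription NF-kappa B can raise.

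Promoter sequence was printed for members whose RefSeq promoter (GRCm38.p6, 250 bases before to 50 after the transcript start, 300 in all) held ACGTG or GCGTG, to show the letters beside the values that follow. The windows of 50 bases were chosen after the expression values were seen, none lies in an annotated exon, and each is written 5′ to 3′ on the strand of its gene. Capitals mark every ACGTG or GCGTG on either strand (CACGT and CACGC are these letters on the other strand).
The 6 members that were higher in the mutants are shown first, then *Egln3* and *P4ha2*, which did not pass the test, and last *Pfkm*, which was lower.
Pgk1, chrX:106186935-106186984, plus strand: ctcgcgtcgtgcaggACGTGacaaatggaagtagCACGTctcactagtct
Ldha, chr7:46845736-46845785, plus strand: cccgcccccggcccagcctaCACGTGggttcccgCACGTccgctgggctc
Aldoa, chr7:126799356-126799405, minus strand: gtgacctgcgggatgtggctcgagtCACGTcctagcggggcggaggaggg
Pgam1, chr19:41911745-41911794, plus strand: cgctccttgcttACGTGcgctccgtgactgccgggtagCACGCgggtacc
Bnip3, chr7:138909590-138909639, minus strand: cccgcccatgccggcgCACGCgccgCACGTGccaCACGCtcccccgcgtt
Hif1a, chr12:73907708-73907757, plus strand: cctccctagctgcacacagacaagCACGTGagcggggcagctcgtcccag
Egln3, chr12:54204075-54204124, minus strand: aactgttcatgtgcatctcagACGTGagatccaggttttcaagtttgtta
P4ha2, chr11:54100814-54100863, plus strand: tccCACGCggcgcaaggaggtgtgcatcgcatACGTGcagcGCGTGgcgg
Pfkm, chr15:98092429-98092478, plus strand: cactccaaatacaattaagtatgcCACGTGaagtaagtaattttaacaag

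The table of promoters had an entry for 33 of the 36 members, with 46 promoters, since some genes have several starts, whose windows can overlap. ACGTG was found in 58.7% of the members' promoters and in 24.7% of the 12901 promoters of the genes tested. GCGTG was found in 58.7% of the members' promoters and 49.6% of all, and 1 or the other in 82.6% and 60.9%. CACGTG, the E-box bound by MYC and USF proteins, holds ACGTG on both strands and was counted as a match. The consensus of NF-kappa B, searched on both strands, was in 13.0% of the members' promoters and 10.3% of all. Counted by gene, with a match in any promoter, ACGTG was present in 24 of the 33 members with an entry and in 28.7% of the genes tested. It was present in 16 of the 20 members with an entry that were higher in the mutants, in 7 of the 11 that did not pass the test, and in 1 of the 2 that were lower. The motif was thus found on both sides of the call, as the windows of *Pgk1* and *Egln3* show, and these matches describe letters and not binding.

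*Rela* (gene 19697), the targeted gene, had 36.47, 34.71 and 33.43 FPKM (a level scaled by transcript length and library size) in the controls and 4.93, 5.53 and 5.72 in the mutants. Its log2 fold change was -2.75 (SE 0.085, adjusted p = 5.5e-07 in edgeR's quasi-likelihood fit, after Benjamini-Hochberg correction), so every label matched its genotype. The remaining 230 to 270 counts per mutant sample show that *Rela* transcripts were reduced and not absent. *Krt12*, the defining keratin of corneal epithelium, lay between 17005 and 21194 FPKM in all 6 samples and was not called between genotypes (log2 fold change -0.15, adjusted p = 0.263 by edgeR). The study itself reported a decrease of *Krt12* mRNA by quantitative PCR, and of its protein, in mutants of this age.

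Most of the pathway was higher in the mutants. Of the 36 members, 35 could be tested and 23 passed an adjusted p of 0.05 in edgeR, 21 higher and 2 lower, which is 65.7% of those tested beside 13.2% of all genes (7.82% higher and 5.42% lower). The median log2 fold change of the members was 0.58, against -0.0028 over all genes tested. The summed level of the members was 2647.5, 2263.3 and 2392.86 FPKM in the controls and 3926.58, 3455.32 and 3699.8 FPKM in the mutants, and the groups did not overlap. As a share of all counts, the members took 0.535%, 0.472% and 0.487% in the controls and 0.774%, 0.687% and 0.731% in the mutants. Every mutant lay above every control in FPKM in 25 of the 35 members tested, beside 17.5% of all genes tested. Every mutant lay below every control in 3, beside 15.2% of all genes. The 25 held all 21 members called higher, which were picked by a test on the same samples. In 17 of the 21 the first mutant sample was the highest of the mutants, and no share over all genes was computed for this count. With that sample left out, all 23 calls were kept. These are bulk samples, in which more cells of a type and more RNA per cell cannot be told apart.

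**Figure D1:**
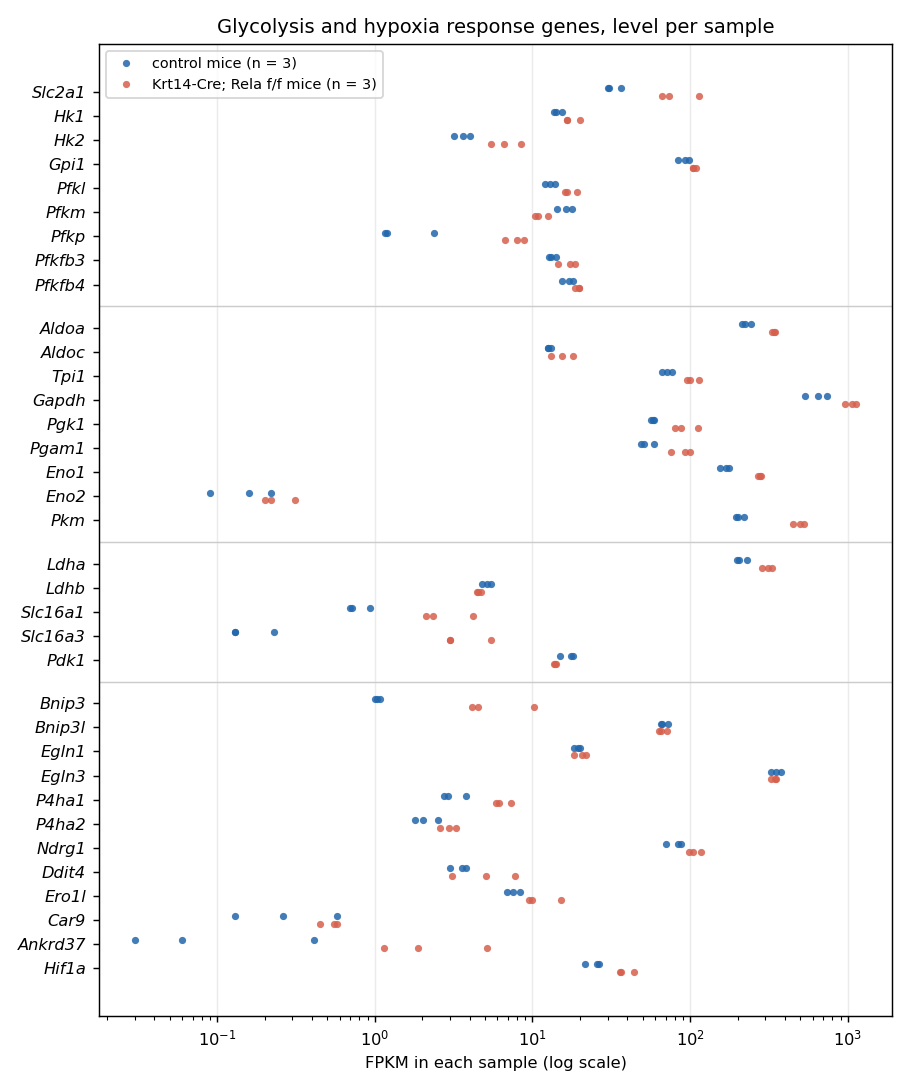
Level of each tested member in each sample, in FPKM on a log axis, with members on the vertical axis in blocks from top to bottom (uptake and commitment, lower glycolysis, pyruvate and lactate, hypoxia response). Blue points are the 3 controls and red points the 3 mutants; *Gapdh*, *Pkm*, *Aldoa*, *Eno1* and *Ldha* lie to the right of 100 FPKM with the mutants higher, while the points of *Bnip3l*, *Egln1* and *Egln3* overlap, and *Slc2a3*, which was not tested, is left out.

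A stricter rule, the one used by the study (adjusted p of at most 0.001 and a change of at least 2-fold), was met by 4 members, *Pfkp*, *Pkm*, *Slc16a3* and *P4ha1*, beside 1.37% of all genes. That count fell to 1 when the second or the third control was left out. At the looser rule, 17 of the 23 calls were kept whichever sample was left out. The 6 that were lost in at least 1 such fit were *Hk1*, *Pfkl*, *Pdk1*, *Ndrg1*, *Ero1l* and *Ankrd37*. Among the 23 called members, 15 differed by at least 1.5-fold and 8 by at least 2-fold.

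**Figure D2:**
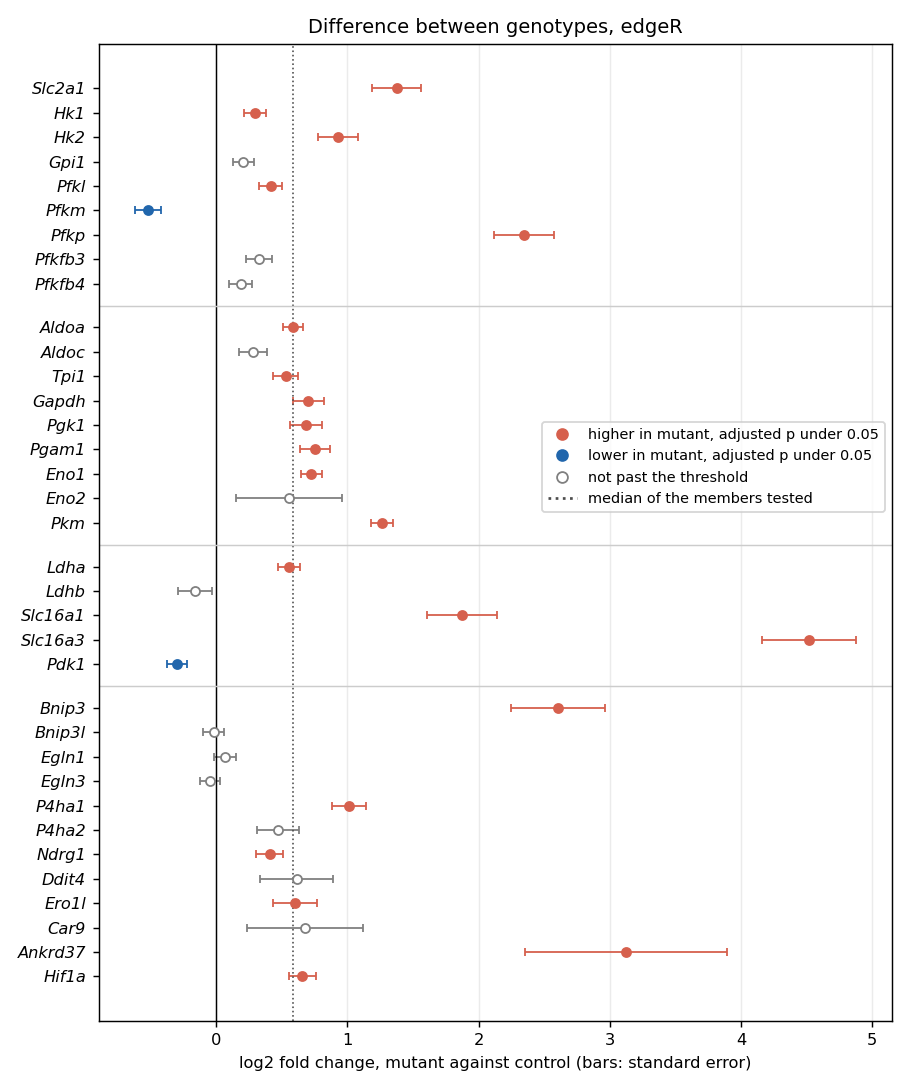
Log2 fold change of the mutants against the controls for each tested member, by edgeR, with bars for the standard error. Red points were called higher, blue points lower and open points did not pass; *Slc16a3* lies farthest right at 4.52, *Pfkm* farthest left at -0.52, and the dotted line is the members' median of 0.58.

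Glucose uptake and commitment to glycolysis held changes in both directions. Of 9 members tested in this block, 5 were called higher and 1 lower, with a median log2 fold change of 0.33. *Slc2a1* (gene 20525, chr4:119107031-119138802 in GRCm38), which encodes the glucose transporter GLUT1, had 36.64, 30.71 and 30.37 FPKM in the controls and 113.87, 73.53 and 66.32 in the mutants. All mutants lay above all controls, the first by the widest margin. The change was 2.60-fold (log2 1.38, SE 0.19, adjusted p = 0.00137 by edgeR). *Slc2a3*, which encodes the high-affinity transporter GLUT3, had 0 to 1 counts per control and 1 to 4 per mutant and was too low to test, so GLUT1 made up 99.96% of the FPKM of the pair in both groups.

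Hexokinases phosphorylate glucose and so keep it in the cell. *Hk2* had 4.02, 3.18 and 3.63 FPKM in the controls and 8.48, 5.47 and 6.58 in the mutants, a 1.90-fold rise (log2 0.93, SE 0.15, adjusted p = 0.00403 by edgeR). *Hk1*, the more abundant of the pair, had 15.30, 14.12 and 13.79 FPKM against 16.60, 16.63 and 19.94. Its groups were apart, but the rise was small (log2 0.29, SE 0.085, adjusted p = 0.0486 by edgeR) and lost its call in 5 of the 6 fits that left out a sample. *Gpi1*, which turns glucose 6-phosphate into fructose 6-phosphate, did not pass the test (log2 fold change 0.21, adjusted p = 0.128 by edgeR), although its FPKM was 98.89, 83.96 and 92.25 in the controls and 108.89, 104.59 and 104.63 in the mutants.

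The 3 phosphofructokinase genes, whose products catalyse the committed step, moved in different directions. *Pfkp*, the platelet-type subunit, was at 2.38, 1.20 and 1.16 FPKM in the controls and at 8.87, 6.71 and 7.97 in the mutants. That was a 5.09-fold rise (log2 2.35, SE 0.23, adjusted p = 2.51e-04 by edgeR). *Pfkm*, the muscle-type subunit, had 14.37, 17.78 and 16.25 FPKM in the controls and 10.35, 10.92 and 12.61 in the mutants, so its groups were apart in the opposite direction. It was 1.43-fold higher in the controls (log2 -0.52, SE 0.10, adjusted p = 0.00907 by edgeR) and was called lower under all 15 alternative settings. *Pfkl*, the liver-type subunit, rose from 13.89, 13.00 and 12.09 FPKM to 16.52, 16.14 and 19.26 (log2 0.41, SE 0.086, adjusted p = 0.0127 by edgeR), a call that was lost without the second control (adjusted p = 0.0568 by edgeR) and without the third (0.0614). *Pfkfb3* and *Pfkfb4*, whose products make the activator fructose 2,6-bisphosphate, had log2 fold changes of 0.33 and 0.19 and did not pass (adjusted p = 0.0567 and 0.187 by edgeR).

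In lower glycolysis the abundant enzymes rose together, 6 of them by 0.53 to 0.75 on the log2 scale. Of 9 genes, 7 were called higher and none lower, with a median log2 fold change of 0.68. Their summed level was 1585.93, 1284.52 and 1437.51 FPKM in the controls and 2628.96, 2269.43 and 2484.42 in the mutants, without overlap. *Aldoa*, which encodes the aldolase that splits fructose 1,6-bisphosphate, had 243.61, 212.09 and 221.70 FPKM in the controls and 348.15, 328.61 and 342.76 in the mutants (log2 0.58, SE 0.077, adjusted p = 0.00117 by edgeR). The spread within either group was small beside the gap between them.

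*Gapdh*, which encodes glyceraldehyde 3-phosphate dehydrogenase and is widely used as a reference gene, had 737.86, 538.12 and 650.74 FPKM in the controls and 1134.65, 957.71 and 1059.92 in the mutants. It was 1.63-fold higher (log2 0.70, SE 0.12, adjusted p = 0.00429 by edgeR). *Eno1*, the main enolase, rose from 177.05, 154.20 and 168.74 FPKM to 277.30, 268.50 and 282.93 (log2 0.73, SE 0.077, adjusted p = 3.85e-04 by edgeR). *Tpi1*, *Pgk1* and *Pgam1* encode triose phosphate isomerase, phosphoglycerate kinase and phosphoglycerate mutase. They rose with log2 fold changes of 0.53, 0.68 and 0.75 (adjusted p = 0.00577, 0.00532 and 0.00243 by edgeR). The first mutant sample was the highest for each of them.

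*Pkm* (gene 18746, chr9:59656368-59679375), which encodes the pyruvate kinase that makes pyruvate and ATP, changed most in this block. It had 220.14, 195.45 and 202.34 FPKM in the controls and 526.46, 449.77 and 500.72 in the mutants. The lowest mutant was 2 or more times the highest control, and the rise was 2.40-fold (log2 1.26, SE 0.084, adjusted p = 2.8e-05 by edgeR). The M1 and M2 isoforms of *Pkm* share the gene's row and were not separated. *Aldoc* and *Eno2*, the isozymes best known from brain, did not pass (log2 fold changes 0.28 and 0.55, adjusted p = 0.126 and 0.415 by edgeR), and *Eno2* was at most 0.31 FPKM in any sample.

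Several members have processed pseudogenes or near copies. Of all 50-base windows of the annotated transcripts, the share found in a transcript of another gene was 53.9% for *Pgk1*, 36.2% for *Pgam1*, 26.0% for *Eno1*, 25.8% for *Pkm*, 24.7% for *Gapdh*, 21% for *Ldhb*, 20.8% for *Bnip3l* and 16.5% for *Bnip3*. Their levels, and the paralog shares made from them, are uncertain by the reads that the counting may have split among copies. Of the windows of *Gapdh*, 20.7% were found in other coding genes. Of the windows of *Eno1*, 25.4% were found in other coding genes, chief among them *Eno1b*, which had a mean of 0.00 FPKM in the controls and 0.05 in the mutants. The other gene can also be one at the same place, since 22.3% of the exon bases of *Bnip3* and 15.3% of those of *Pkm* overlap another gene.

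The genes for pyruvate and lactate held the steepest rise among the members, in lactate transport. Of 5 members, 3 were called higher and 1 lower. *Slc16a3* (gene 80879, chr11:120948484-120959000), which encodes the lactate exporter MCT4, had 0.23, 0.13 and 0.13 FPKM in the controls and 5.50, 2.98 and 3.02 in the mutants, or 6 to 11 counts against 140 to 254. This was a 22.9-fold rise (log2 4.52, SE 0.36, adjusted p = 7.02e-05 by edgeR). *Slc16a1*, which encodes the more general transporter MCT1, had 0.93, 0.70 and 0.72 FPKM against 4.19, 2.12 and 2.34, a 3.66-fold rise (log2 1.87, SE 0.27, adjusted p = 0.00189 by edgeR). Both transporters were highest in the first mutant sample, and neither group overlapped the other.

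*Ldha*, whose enzyme favours the conversion of pyruvate to lactate, had 228.92, 205.05 and 199.28 FPKM in the controls and 333.06, 285.25 and 312.90 in the mutants (1.47-fold, log2 0.55, SE 0.085, adjusted p = 0.00273 by edgeR). *Ldhb*, whose enzyme favours the reverse reaction, was at 5.45, 4.77 and 5.16 FPKM against 4.5, 4.48 and 4.72. The groups were apart with the mutants lower, but the difference did not pass the test (log2 -0.16, adjusted p = 0.457 by edgeR). *Pdk1*, a kinase that turns off pyruvate dehydrogenase and a well known HIF target, was the other member called lower, with 17.48, 18.02 and 15.03 FPKM in the controls and 13.63, 13.84 and 14.03 in the mutants. The change was small (log2 -0.30, SE 0.076, adjusted p = 0.0308 by edgeR), and its adjusted p lay between 0.0623 and 0.11 in the 4 fits without the first control, the second control, the second mutant or the third mutant.

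The hypoxia response genes were split, with 6 of 12 called higher, none lower, and a median log2 fold change of 0.61. *Bnip3*, a mitophagy receptor, had 1.08, 1.03 and 1.00 FPKM in the controls and 10.27, 4.12 and 4.52 in the mutants. It rose 6.08-fold (log2 2.61, SE 0.36, adjusted p = 0.00159 by edgeR), with the first mutant sample far above the other mutants. *P4ha1*, a subunit of the collagen prolyl 4-hydroxylase, rose 2.02-fold, from 3.80, 2.93 and 2.76 FPKM to 7.35, 5.88 and 6.13 (log2 1.01, SE 0.13, adjusted p = 9.31e-04 by edgeR). *Hif1a* itself had 25.73, 26.40 and 21.67 FPKM in the controls and 43.93, 35.86 and 36.24 in the mutants, all of them above the controls. That was a 1.57-fold rise (log2 0.66, SE 0.10, adjusted p = 0.00303 by edgeR), and these values concern its RNA, while HIF-1 alpha is known to be set largely by the stability of the protein.

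Another 3 calls in this block were less secure. *Ankrd37*, an ankyrin repeat gene induced by HIF-1, had 0.41, 0.03 and 0.06 FPKM in the controls and 5.12, 1.89 and 1.15 in the mutants, or 1 to 13 counts against 20 to 88. Its groups were apart and its change was 8.73-fold (log2 3.13, SE 0.77, adjusted p = 0.0269 by edgeR), but the value was 29.0-fold without the first control and 4.94-fold without the first mutant, and the call was lost without the second control (adjusted p = 0.112 by edgeR) or the third (0.106). Of its exon bases, 26.4% overlap another coding gene. *Ero1l*, an oxidase of disulfide bond formation, had 8.29, 7.56 and 6.88 FPKM against 15.10, 9.88 and 9.54 (log2 0.60, SE 0.17, adjusted p = 0.0426 by edgeR). Without the first control, the second or the third, its adjusted p was 0.0788, 0.143 and 0.145. *Ndrg1*, a stress and differentiation gene, had 83.55, 70.86 and 87.12 FPKM against 104.72, 117.43 and 98.70 (log2 0.41, SE 0.11, adjusted p = 0.0331 by edgeR), and its adjusted p was 0.0832, 0.125 and 0.112 without the first control, the second control or the second mutant.

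The remaining 6 hypoxia response genes did not pass. *Egln3*, an oxygen sensor and itself a known HIF target, was abundant at 378.75, 349.15 and 325.52 FPKM in the controls and 324.47, 346.56 and 351.55 in the mutants. *Bnip3l*, the paralog of *Bnip3*, had 65.63, 72.04 and 66.07 FPKM against 71.91, 63.70 and 65.62. The groups overlapped for both genes, and their log2 fold changes were -0.04 and -0.02 (SE 0.076 and 0.079, adjusted p = 0.745 and 0.9 by edgeR). *Egln1*, the main HIF prolyl hydroxylase, was also close to 0 (log2 0.07, adjusted p = 0.645 by edgeR). *Ddit4*, an inhibitor of mTORC1, had 3.58, 3.77 and 3.02 FPKM against 7.74, 3.08 and 5.05, and *Car9*, a carbonic anhydrase, had 0.58, 0.13 and 0.26 against 0.45, 0.55 and 0.58. Their groups overlapped and their errors were wide (log2 0.61 and 0.68, SE 0.28 and 0.44, adjusted p = 0.188 and 0.355 by edgeR), and *Car9* was at 1.33 on the log2 scale without the first control. *P4ha2*, the second collagen hydroxylase subunit, had every mutant above every control but did not pass (log2 0.47, adjusted p = 0.0907 by edgeR).

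Because many members are paralogs with the same reaction, the share of each within its family was computed from FPKM. Over 13 shares in 11 families, 9 shares in 7 families had groups that did not overlap. No such shares were computed for other gene families, so this count has no background beside it. The 3 phosphofructokinase shares add to a fixed sum and are not independent. For each of the 9 the exact two-sided permutation test gave p = 0.1, the smallest value possible with 3 against 3, and the adjusted p over the 13 was 0.144, so none could pass the threshold. *Pfkm* went from 52.5% ± 4.88 (SD, n = 3) of the phosphofructokinase transcripts to 31.0% ± 1.79, while *Pfkp* went from 5.15% ± 2.27 to 21.6% ± 2.82. *Slc16a1* made up 83.1% ± 2.52 of the transporter pair in the controls and 42.8% ± 1.11 in the mutants, so *Slc16a3* passed from the minor to the major of the pair. *Hk1* went from 80.0% ± 1.41 to 72.2% ± 5.21 of the hexokinases. *Bnip3* went from 1.51% to 8.34% of its pair, which remained mostly *Bnip3l*. *P4ha1* went from 59.8% to 68.7% of its pair. *Aldoa* and *Ldha* made up 94.6% and 97.6% of their pairs in the controls and 95.6% and 98.5% in the mutants, whereas the shares of *Slc2a1*, *Eno1*, *Pfkfb3* and *Egln1* overlapped between groups.

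**Figure D3:**
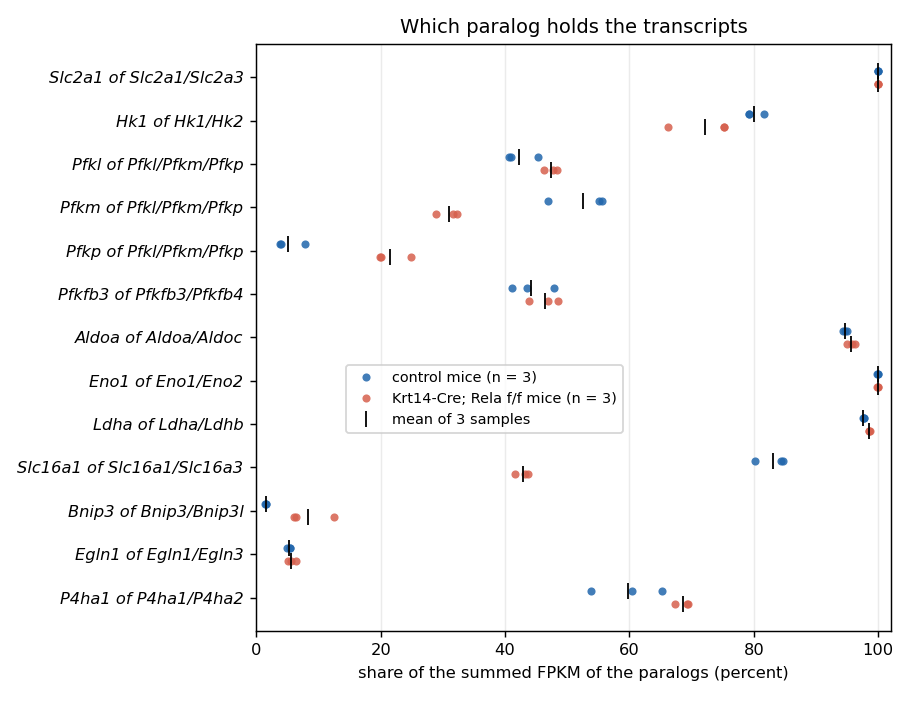
Share of the summed FPKM of a paralog family held by 1 gene, in percent, for each sample, with vertical ticks at the mean of 3 samples. Controls (blue) and mutants (red) are apart for the 3 phosphofructokinases and for *Slc16a1*, which goes from 83.1% to 42.8%, and coincide near 100% for *Slc2a1* and *Eno1*.

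The neighbouring pathways were taken from 5 further lists that hold no member. In all, 133 different genes were listed, 109 were tested, and 30 were called, 17 higher and 13 lower, which is 27.5%, beside 13.2% of all genes (7.82% higher and 5.42% lower). Of these genes, 4 (*Gbe1*, *Gys1*, *Pgm1* and *Ppp1r3c*) stand in more than 1 list and count in each of their lists below. Among 36 tested hypoxia-inducible genes outside the 36 members, 14 were called higher and 4 lower, with a median log2 fold change of 0.31. By contrast, 36 other genes of glycolysis and gluconeogenesis gave 1 higher and 5 lower (median -0.16), 11 of the pentose phosphate pathway 1 higher and none lower (median -0.12), 17 of glycogen metabolism 2 higher and 3 lower (median -0.07), and 13 further components of the HIF pathway none higher and 3 lower (median -0.09). Called genes made up 16.7%, 9.09%, 29.4% and 23.1% of these 4 lists, and 18 of the 36 in the hypoxia-inducible list. The medians of the 4 lay below 0, on the other side from those of the members.

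Genes named from each list are the up to 3 with the smallest adjusted p. *Plod2*, a collagen lysyl hydroxylase, rose from 0.20, 0.15 and 0.14 FPKM to 2.39, 1.42 and 0.97 (log2 3.25, adjusted p = 6.34e-04 by edgeR). *Adm*, the vasodilator peptide adrenomedullin, rose from 0.52, 0.53 and 0.78 FPKM to 12.72, 7.06 and 3.78 (log2 3.68, adjusted p = 9.35e-04 by edgeR). In both genes the first mutant sample was the highest, as in 17 of the 21 members called higher.

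The 2 subunits of the carrier that brings pyruvate into mitochondria were lower in the mutants, where *Slc16a1* and *Slc16a3* were higher. *Mpc1*, a subunit of the mitochondrial pyruvate carrier, had 55.61, 58.48 and 61.98 FPKM in the controls and 42.72, 36.78 and 42.55 in the mutants (log2 -0.53, SE 0.084, adjusted p = 0.00345 by edgeR). Its partner *Mpc2* had 47.49, 49.16 and 54.76 against 40.78, 34.64 and 35.48 (log2 -0.45, adjusted p = 0.0157 by edgeR), a call lost without the third control or the second mutant. *Slc16a6*, a further transporter of the monocarboxylate family, rose from 4.91, 3.03 and 3.27 FPKM to 10.94, 9.21 and 6.62 (log2 1.43, adjusted p = 0.00279 by edgeR). *Slc16a7*, which encodes the lactate and pyruvate transporter MCT2 and was added after its values were seen, was lower, with 0.80, 0.53 and 0.70 FPKM against 0.25, 0.53 and 0.54. Its groups overlapped, and its call (log2 -0.73, adjusted p = 0.0363 by edgeR) held in only 1 of the 6 fits that left out a sample, that without the second mutant. The pentose phosphate list had 1 call, *Prps1*, which makes the nucleotide precursor phosphoribosyl pyrophosphate (log2 0.68, adjusted p = 0.0299 by edgeR), a call lost without any 1 of the controls or without the third mutant.

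In glycogen metabolism *Ppp1r3c*, a subunit that targets protein phosphatase 1 to glycogen, fell from 132.44, 124.90 and 114.68 FPKM to 79.63, 92.00 and 89.18 (log2 -0.51, adjusted p = 0.0033 by edgeR). The branching enzyme gene *Gbe1* fell by 0.37 on the log2 scale (adjusted p = 0.0109 by edgeR), and *Ppp1r3b*, another targeting subunit with 7 to 11 counts per control, rose by 2.46 (adjusted p = 0.00648 by edgeR). *Ppp1r3c* and *Gbe1* also stand in the hypoxia-inducible list, among its 4 genes called lower. Among HIF components, *Epas1*, which encodes HIF-2 alpha, had 125.42, 141.31 and 113.10 FPKM in the controls and 78.22, 81.14 and 107.18 in the mutants. Its direction was opposite to that of *Hif1a* (log2 -0.51, adjusted p = 0.0224 by edgeR), and the call was lost without the first or second control or the second mutant. *Cited2*, which competes with HIF-1 alpha for the coactivators p300 and CBP, fell by 0.40 (adjusted p = 0.00658 by edgeR), and *Rbx1*, part of the VHL ubiquitin ligase, fell by 0.30 (adjusted p = 0.0381 by edgeR). The call of *Rbx1* was lost without the first control, the third control, the second mutant or the third mutant.

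**Figure D4:**
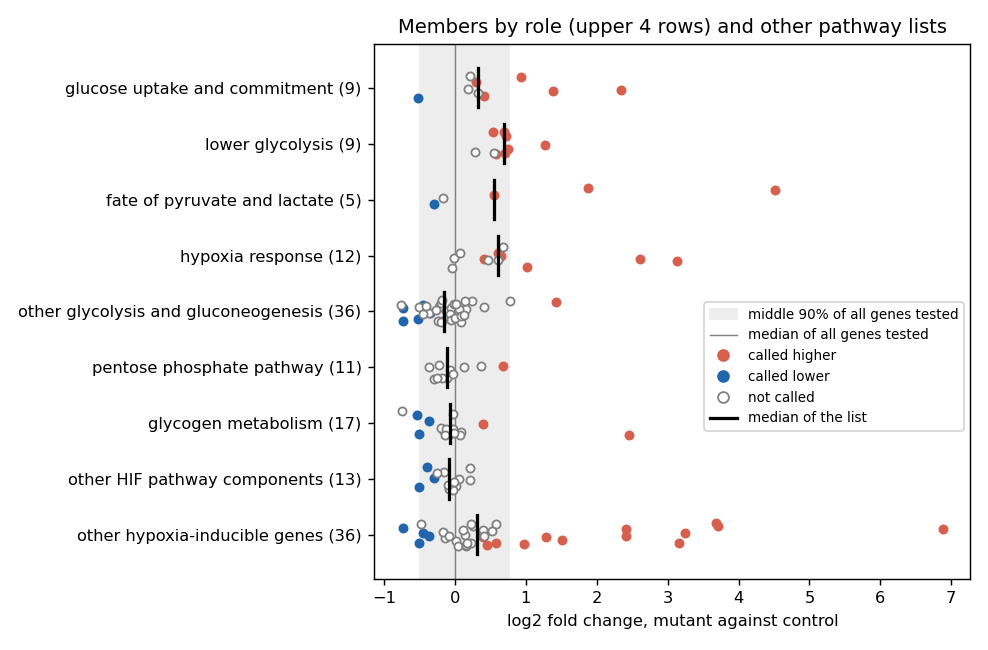
Log2 fold change of each tested gene, with the members by role in the upper 4 rows and the 5 other pathway lists below (number tested in brackets). The grey band holds the middle 90% of all genes tested, -0.50 to 0.77, black ticks are list medians, and the medians lie to the right of 0 for the 4 member rows and for the other hypoxia-inducible genes.

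Markers of the cell types that the preparation could hold were summed in FPKM. The corneal epithelium list (10 genes) had 46855 to 50858 in the controls and 42965 to 46629 in the mutants. Within it *Krt14*, the keratin whose promoter drives Cre, was at 203.03, 149.81 and 181.15 FPKM in the controls and at 2203.60, 1579.63 and 1474.44 in the mutants, highest in the first mutant as in most called members. Of the 10 genes, 2 were called higher, *Krt14* (9.98-fold, log2 3.32, SE 0.18, adjusted p = 1.06e-05 by edgeR) and *Epcam* (log2 0.30, adjusted p = 0.0297 by edgeR). *Krt14* was past the study's thresholds, and its call was kept whichever sample was left out. Another 2 were called lower, *Krt15* and *Aldh3a1* (log2 -0.55 and -0.25, adjusted p = 0.0389 and 0.0466 by edgeR). The call of *Aldh3a1* was lost whichever sample was left out. With a sample left out, *Krt15* kept its call only without the first mutant, and *Epcam* only without the first or the third mutant. The keratocyte and fibroblast list (9 genes) had 2.61 to 2.99 against 2.3 to 5.53, within which *Dcn*, which encodes decorin, rose from 0.08, 0.06 and 0.03 FPKM (1 to 3 counts) to 1.8, 0.96 and 0.39 (adjusted p = 0.00507 by edgeR, at most 0.0366 with a sample left out). In the same list *Pdgfra*, a growth factor receptor of mesenchymal cells, was lower (log2 -0.78, adjusted p = 0.00496 by edgeR). *Col1a1*, *Col3a1* and *Vim* were too low to test and at most 0.53 FPKM, with every mutant above every control and no mutant above the first, and *Kera*, which encodes keratocan, was at most 0.07. The conjunctival and goblet cell list had 1363 to 1597 against 1075 to 1192, with *Muc5ac* at most 0.01.

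The immune list (10 genes) had 85.4 to 92.0 against 80.1 to 125, with *Ptprc*, the gene of the pan-leukocyte antigen CD45, at most 0.15 FPKM. Most of the sum was *Itgam*, which encodes an integrin of myeloid cells, at 64.82, 63.85 and 67.15 FPKM in the controls and 94.77, 64.42 and 50.97 in the mutants. *Lyz2*, the lysozyme of myeloid cells, was too low to test, with 0.00, 0.00 and 0.05 FPKM against 1.17, 0.64 and 0.19, so that the first mutant sample was again the highest. Other myeloid genes, *Csf1r*, *Adgre1* and *Itgax*, were also too low to test, and their groups overlapped. Their means were 0.13, 0.033 and 0.12 FPKM in the controls and 0.14, 0.037 and 0.11 in the mutants. *Cd68* had every mutant above every control but did not pass (log2 0.22, adjusted p = 0.224 by edgeR). Lower sums were found for vascular endothelium (0.06 to 0.15 against 0.19 to 0.27), corneal endothelium (6.18 to 7.25 against 6.59 to 11.9), muscle (0.58 to 1.85 against 1.46 to 1.97), red blood cells (3.18 to 4.36 against 2.28 to 2.66), melanocytes (4.31 to 4.97 against 4.65 to 5.25), nerve and Schwann cells (1.0 to 1.1 against 1.01 to 1.2), and lens and retina (1.03 to 4.72 against 3.06 to 10.1). No marker with a row in the table was at 0 in every sample. The part of the differences in *Krt14*, *Dcn*, *Lyz2* and the other markers in the result was not tested.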

How the data were processed

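RNA from the corneal epithelial layer was sequenced in 3 control and 3 mutant samples, described in the methods as independent biological samples. Per the study's methods, single-end reads of 50 bases (BGISEQ-500, after removal of ribosomal RNA) were filtered, aligned with Bowtie2 2.2.5 and quantified with RSEM 1.2.12. The labels instead name an Illumina TruSeq kit. The labels name the build mm9, whereas the coordinates in the deposited table match GRCm38, which is used here. Strand was not given in the sources used here, so overlapping genes cannot be told apart. The authors deposited, per gene and sample, RSEM expected counts and FPKM (checked against the counts). Columns of group means, fold changes and p-values from the authors' comparison were not used.

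Expected counts were rounded, genes were filtered (filterByExpr, minimum count 10, minimum total 15), scaled by TMM and tested with edgeR 4.0.16 (R 4.3.3) by the quasi-likelihood test on genotype over all 6 samples, with Benjamini-Hochberg adjustment over 12667 genes. A gene was called at an adjusted p under 0.05, SE was derived from the fold change and the F statistic, and levels are FPKM. The script was tested on simulated data. Alternatives used DESeq2 1.42.0, limma 3.58.1, other scalings and filters, a replicate block, and each sample left out in turn. Total counts of about 19492942 to 19733834 per sample set the precision, and the count floor covers counting error only. All 36 members were to be described, with up to 3 called genes of smallest adjusted p per further list. A gene that this rule also picked is not reported here. Members, lists and tests were chosen with earlier results of these data known.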

Additional observations from a re-analysis of the deposited data

How the results depend on the processing

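Calls here are edgeR's at an adjusted p under 0.05 unless another tool is named. Of the 23 called members, 16 kept their call and direction in all 15 refits, and *Slc16a3* in the 14 that tested it, since the minimum of 10 counts in every sample removed it. Over the refits, the number of members called ranged from 17 to 24, with 16 to 22 higher. The log2 fold change of *Rela* ranged from -2.78 to -2.49 and the members' median from 0.49, without the first mutant, to 0.63. The 2 calls of lower members became 1 with limma (log2 of FPKM plus 1 or plus 0.1, filtered or not) and with the replicate block, and 1 to 2 with a sample left out. The 4 members past the study's thresholds became 8 with DESeq2, 7 without the filter, 7 with the replicate block, 15 when a 1.5-fold change and an adjusted p up to 0.05 sufficed, and 1 to 6 with a sample left out. With limma on log2(FPKM + 1) without a filter that count was 0, where 17 members passed an adjusted p of 0.05 and 27 an unadjusted p of 0.05. The 30 calls in the other lists became 17 in that limma fit and 18 to 31 with a sample left out (19 without the first control, 18 without the third). Over all genes, 1678 calls became 857 to 1869 (857 without the second control, 999 without the third). Among members not called, *Bnip3l* (-0.02) ranged from -0.080 to 0.016 with a sample left out, above 0 without the second control (0.016), the second mutant (0.011) or the third mutant (0.0058), and *Egln3* (-0.04) from -0.085 to 0.0031, the last without the first control. Without the second mutant, *Pfkfb3*, *Aldoc* and *Ddit4* were called higher (adjusted p = 0.0255, 0.04 and 0.0311 by edgeR), while 3 of the 23 calls were lost. The cause of these shifts was not tested. Families with a paralog share apart between groups numbered 7, and 7 to 9 with a sample left out. Same-numbered samples did not deviate together (correlations of 0.019, 0.048 and -0.046), and not every sample correlated best with the one of its own number, so the numbers were not taken as pairs; with the replicate block, 20 members and 1419 genes were called.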
